A study of Sus scrofa with 4 samples.

Results

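The transcripts of the mitochondrial genome were followed in longissimus dorsi (LD) muscle of Laiwu pigs, an indigenous Chinese breed that deposits much fat within its muscles. Every feature that the deposited tables place on the chromosome named MT was taken, with no value of expression used in the choice, which gave 10 of 22658 features. The 10 features cover the 13 protein-coding genes of the mitochondrial chromosome, because 2 of them join neighbouring genes, ATP8 with ATP6 and COX3, and ND4L with ND4. No ribosomal RNA and no transfer RNA feature lies among them, and none is under 100 bases, so all values below are of mitochondrial messenger RNAs. The muscle came from castrated male pigs kept under like housing and feed, wild type by the labels and without any treatment, at the ages of 60, 120, 240 and 400 d. Each age had 3 libraries, 1 for each pig per the study's methods, and a library is named here by its age and its place in the table of that age (60 d-1, 60 d-2, 60 d-3). The comparison asks how the mitochondrial transcripts changed from the young to the grown pig, over the ages between which the study followed the deposition of fat in this muscle.

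The mitochondrial chromosome is a small circle of DNA present in many copies in each cell, and all its protein-coding genes encode subunits of oxidative phosphorylation. ND1 to ND6 and ND4L belong to complex I (NADH dehydrogenase), CYTB to complex III, COX1 to COX3 to complex IV (cytochrome c oxidase), and ATP6 and ATP8 to complex V (ATP synthase). Both strands are transcribed as long precursors that are cut at the transfer RNAs lying between the genes, and the resulting messenger RNAs then differ in how long they last. ND6 alone among the protein-coding genes is read from the opposite strand. All other subunits of these complexes, and the proteins that copy, transcribe and process mitochondrial nucleic acids, are encoded in the nucleus. In muscle, slow fibres that work by oxidation hold more mitochondria than fast glycolytic fibres, and bulk tissue cannot tell more such fibres or other cells apart from more RNA per cell.

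Some facts about the libraries bear on these values. The ages are those of the sample labels, but the study's supplementary table of differentially expressed genes gives other ages to the same FPKM values. Its columns for 60, 120, 240 and 400 d match the libraries labelled 400, 240, 60 and 120 d, with a median absolute log2 difference of 0.0198 to 0.02, against 0.544 or more for any other label. A further supplementary table, for 120 d, equals the library 120 d-3 in 100% of 5980 values within a tolerance of 0.1%, as labelled, so the sources of the study disagree among themselves. The labelled ages are used below. By the supplementary table's ages a change from 60 d to 120 d is one from 240 d to 400 d, and a change between any other pair of labelled ages turns its direction, for the mitochondrial features, the nuclear subunits and every other gene named. Any test of a difference among the 4 groups is the same under both. The total count was between 9713813 and 13325327 per library. ACTA1, the main actin of muscle fibres, was listed at 0 counts in 7 libraries and took 5.64 to 8.57% of the counts in the other 5, so its reads were not counted evenly. The markers DES and TNNC1 of muscle fibres were high in every library, TNNC1 between 2148 and 7791 FPKM.

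The positions of the features are those of the deposited tables on the pig genome build Sscrofa10.2 named in the study's methods. On the plus strand lie ND1 (ENSSSCG00000018065) at MT:3922-4878, ND2 (ENSSSCG00000018069) at MT:5087-6130, COX1 (ENSSSCG00000018075) at MT:6511-8055 and COX2 (ENSSSCG00000018078) at MT:8203-8890. Then follow the joined ATP8/ATP6/COX3 feature (ENSSSCG00000018080) at MT:8959-10583, ND3 (ENSSSCG00000018084) at MT:10653-10998, the joined ND4L/ND4 feature (ENSSSCG00000018086) at MT:11069-12736, ND5 (ENSSSCG00000018091) at MT:12935-14755 and CYTB (ENSSSCG00000018094) at MT:15342-16481. ND6 (ENSSSCG00000018092) lies on the minus strand at MT:14739-15266 and shares 17 bases with the end of ND5. The library kit is not one that marks the strand, so reads of ND6 and reads of the precursor of the other strand in this window cannot be told apart, and the ND6 values are uncertain to that extent. The order of genes within the joined features was taken from the RefSeq annotation of Sscrofa11.1, of which no coordinate is used.

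Mitochondrial messenger RNAs took 5.5 to 11.5% of all counts of a library, with a median of 9.03% over the 12 libraries. At 60 d the share was 11.1% in 60 d-1, 11.5% in 60 d-2 and 5.52% in 60 d-3, a mean of 9.37% ± 3.34 (SD, n = 3). At 120 d it was 7.67, 5.5 and 6.82%, a mean of 6.66% ± 1.09 (SD, n = 3). At 240 d it was 9.04, 5.9 and 9.63%, a mean of 8.19% ± 2.01 (SD, n = 3), and at 400 d 9.76, 9.51 and 9.01%, a mean of 9.42% ± 0.38 (SD, n = 3). The 95% Wilson interval ran from 11.04 to 11.08% in 60 d-1 and was narrower in every other library, and it covers counting error only. The libraries of 60 d were the most spread and those of 400 d the least. The lowest libraries of 60, 120 and 240 d had close values, and each of the 3 libraries at 400 d was above all 3 at 120 d.

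**Figure D1:**
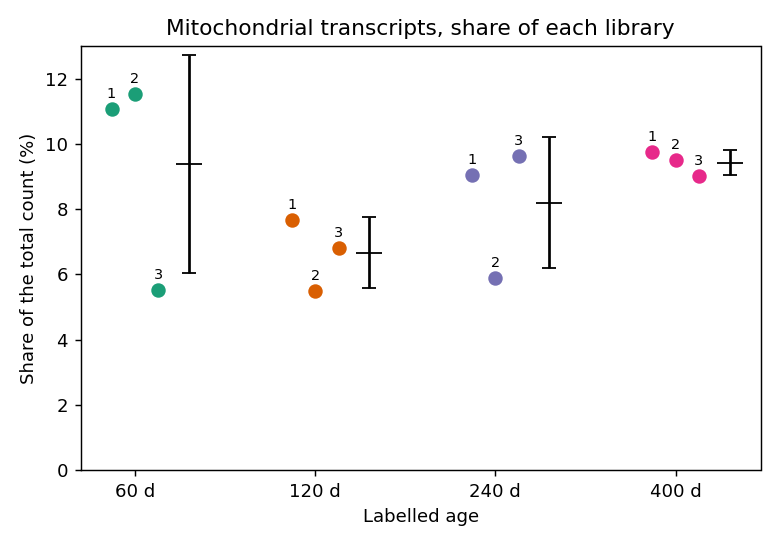
Share of the total count taken by the 10 mitochondrial features, in percent, with 1 point per library, numbered by its place at each labelled age, and the mean with SD as a bar beside each age. The libraries of 60 d spread from 5.52 to 11.5%, while those of 400 d lie between 9.01 and 9.76%, above all 3 libraries of 120 d.

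The share did not differ among the ages beyond the spread between pigs (exact permutation test over 369600 assignments of the libraries to the ages, p = 0.347, adjusted p = 0.347 over this share and the ND6 share below). Leaving out 60 d-3 brought this p to 0.0321 (exact permutation test), and leaving out 60 d-1 gave 0.452. From 120 d to 400 d the mean was higher by 2.76 percentage points with no overlap of the groups, and its exact two-sided permutation p was 0.1, the smallest that 3 against 3 libraries allow. In the other 5 pairs of ages the groups overlapped, with exact permutation p between 0.3 and 1. Under the ages of the supplementary table the same pair reads as 400 d against 60 d, and the share is lower at the later age by 2.76 percentage points. Without ACTA1 in the total, the share had means of 9.37, 6.82, 8.8 and 9.66% at the 4 ages, with the same pair alone free of overlap.

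At 60 d and 240 d the library with the lowest mitochondrial share was also the lowest in transcripts of slow oxidative fibres, while at 120 d and 400 d it was the highest. The summed level of the 5 of 8 slow fibre markers found by symbol (MYH7B, MYL3, TNNC1, TNNI1, TNNT1) was 12632, 9102 and 4448 CPM (counts scaled to a common library total) in 60 d-1, 60 d-2 and 60 d-3. At 240 d it was 7532, 3700 and 8579 CPM, again lowest in the library with the lowest mitochondrial share, 240 d-2. At 120 d the sums were 6503, 7246 and 4951 CPM and did not follow the mitochondrial share, which was lowest in 120 d-2. At 400 d they were 8075, 5901 and 9735 CPM. Some markers of other cells also differed between the labelled ages. The summed level of the 6 of 8 leukocyte markers found was between 48.5 and 64.4 CPM at 60 d, and it reached 191 CPM in 120 d-2 with a lowest value of 51.8 CPM at that age. At 240 d it lay between 21.7 and 47.2 CPM, and the 400 d libraries had 8.8 to 30.2 CPM. The 4 of 6 fibroblast markers had sums between 2816 and 9299 CPM at 60 d, between 4529 and 7435 CPM at 120 d, between 1921 and 3370 CPM at 240 d, and between 751 and 2232 CPM at 400 d. The 3 of 7 red blood cell markers had sums between 97.5 and 513 CPM at 60 d, between 17.9 and 107 CPM at 120 d, between 60.4 and 147 CPM at 240 d, and between 26.8 and 47.7 CPM at 400 d. The leukocyte and fibroblast sums of 400 d thus lay below all of 60 d and 120 d. Both sums of 240 d lay below all of 120 d, and the leukocyte sums of 240 d also below all of 60 d. The red blood cell sums of 400 d lay below all of 60 d and 240 d. The 3 of 6 endothelial markers summed to between 101 and 442 CPM and the 4 of 5 satellite cell markers to between 47.4 and 121 CPM over all libraries. The endothelial sums of 400 d (101 to 203 CPM) lay below those of 120 d (218 to 341 CPM). The satellite cell sums of 60 d (66.4 to 86.5 CPM) lay below those of 120 d (90.5 to 107.5 CPM). In the endothelial and satellite cell lists all other pairs of ages overlapped. The 3 of 7 adipocyte markers found summed to between 20.9 and 147 CPM over all libraries, with overlap between all ages. No marker found of these lists, or of the endothelial, fibroblast, red blood cell and satellite cell lists, was at 0 in every library. The part of these cells in the mitochondrial share and in the changes with age below was not tested.

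As single features, mitochondrial transcripts were among those with the most counts in this muscle. COX1, the catalytic subunit of complex IV, ranked between 1 and 7 by count in every library, and ATP8/ATP6/COX3 between 1 and 9. ND3 ranked between 70 and 176 of all features and ND6 between 74 and 213, and each of them had the fewer counts in some libraries. Within the mitochondrial counts, COX1 took a median of 32.2%, ATP8/ATP6/COX3 29%, COX2 8.72%, ND4L/ND4 8.52%, CYTB 7.26%, ND5 5.07%, ND1 3.72%, ND2 2.68%, ND6 1.23% and ND3 1.1% over the 11 libraries other than 60 d-1, which is described further on. The subunits of complexes IV and V thus held most of the counts, and the 6 features of complex I together held far fewer.

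Per length, the order of the levels depends on how the length is treated. By the deposited FPKM (fragments per kilobase, scaled by library depth), the medians over the 12 libraries were 61750 for ATP8/ATP6/COX3, 16634 for COX1, 13578 for COX2, 7809 for ND4L/ND4, 5600 for CYTB, 5531 for ND3, 3476 for ND1, 2484 for ND2, 2443 for ND6 and 2032 for ND5. In this order CYTB was above ND3 in 5 of 12 libraries and ND2 above ND6 in 4 of 12, so these neighbours did not differ beyond the spread between libraries, while all other neighbours kept their order in 11 or 12 libraries. Counted as CPM per kilobase of the whole locus, COX1 came first with a median of 16971, then ATP8/ATP6/COX3 with 16532, COX2 with 10856, CYTB with 5680, ND4L/ND4 with 4604, ND1 with 3302, ND3 with 2695, ND2 with 2368, ND5 with 2179 and ND6 with 1715. On that scale COX1 was above ATP8/ATP6/COX3 in 11 of 12 libraries, and ND2 was above ND5 in 4 of 12. The FPKM exceeded the count per kilobase of locus by 3.91 times for ATP8/ATP6/COX3, 2.12 times for ND3 and 1.76 times for ND4L/ND4, the joined features and the shortest gene, and by 0.95 times for ND5, the longest. The FPKM of the joined features therefore cannot be set against that of single genes.

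**Figure D2:**
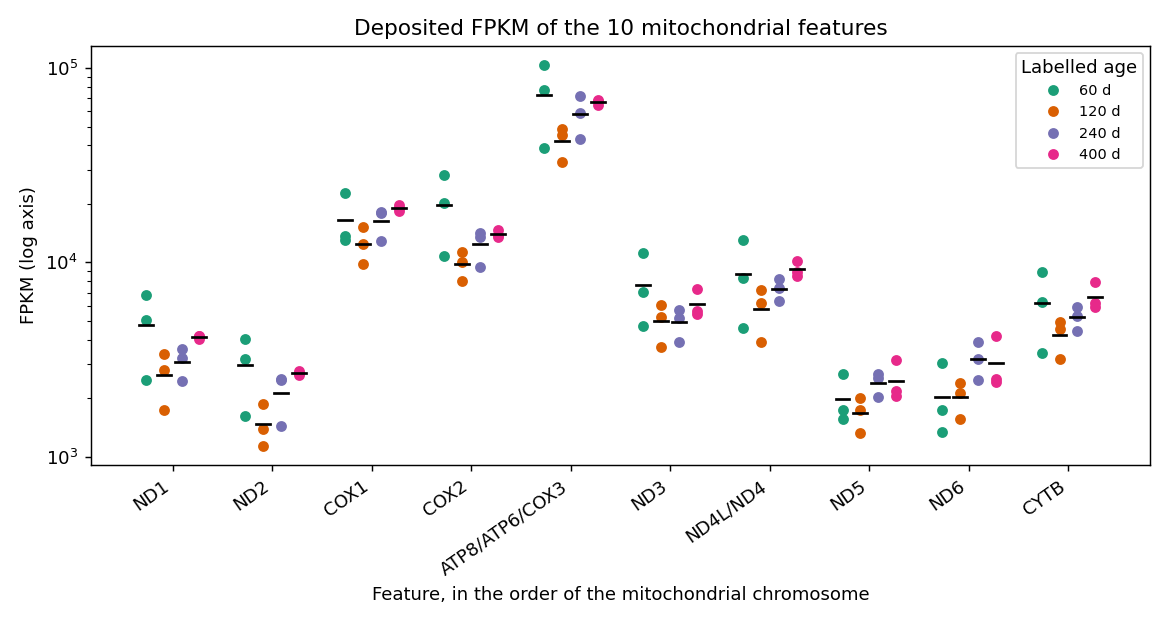
Deposited FPKM of each mitochondrial feature on a log axis, with 1 point per library coloured by labelled age and a black line at the mean of each age. Most features have their lowest mean at 120 d and their widest spread at 60 d, and ATP8/ATP6/COX3 lies above all others.

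One library, 60 d-1, had another make-up of its mitochondrial counts than the other 11. In it COX1 took 17.9% of the mitochondrial counts, against 29.2 to 34.6% elsewhere. ND5, an antiporter-like subunit of the membrane arm of complex I, took 2.76% against 4.18 to 6.09%, and ND6 took 0.415% against 0.983 to 1.59%. ATP8/ATP6/COX3 took 38% against 27.9 to 30.9%, and COX2, which carries the copper site that receives electrons from cytochrome c, took 13.2% against 7.74 to 10.6%. In all, 8 of the 10 features lay outside the range of the other 11 libraries, all but ND4L/ND4 and CYTB, while no other library had more than 4 such features. The counts of COX1 over those of COX2 were 1.36 in 60 d-1 and 3.15 to 3.95 in the other libraries, although both belong to the same complex and are read from the same strand. Of the features that took less in 60 d-1, ND5 has the longest locus at 1821 bases and ND6 one of the shortest at 528 bases.

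**Figure D3:**
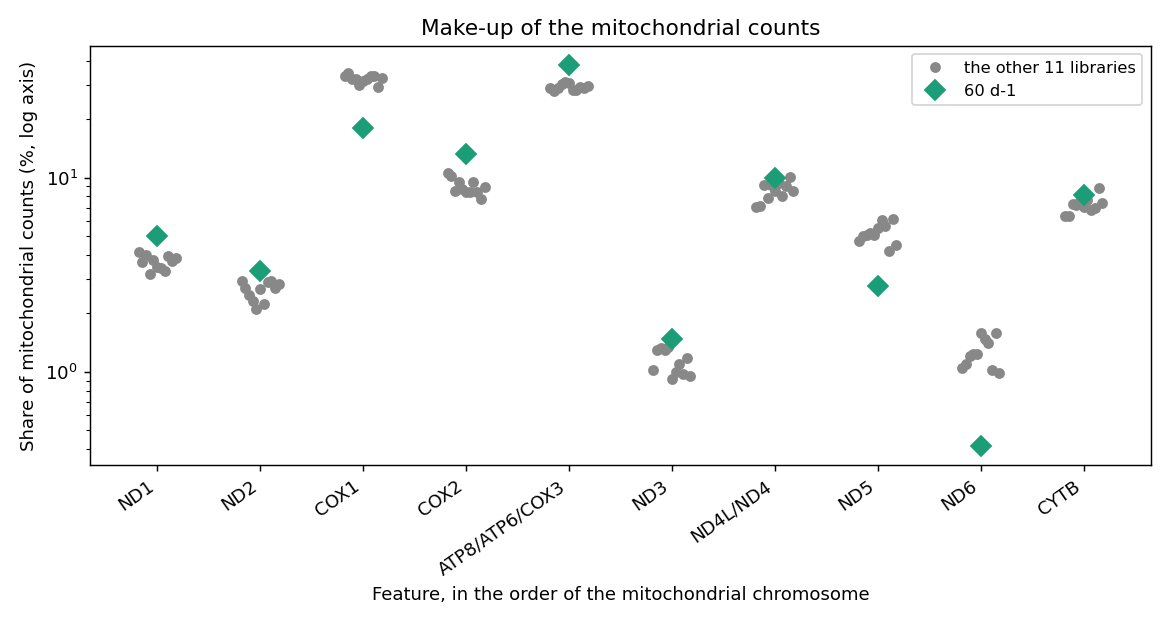
Share of each feature in the mitochondrial counts of a library, in percent on a log axis, with 60 d-1 as a green diamond and the other 11 libraries as grey points. In 60 d-1, COX1 (17.9%), ND5 (2.76%) and ND6 (0.415%) lie below, and COX2 (13.2%) and ATP8/ATP6/COX3 (38%) above, all other libraries.

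The nuclear features of 60 d-1 also differed by length. Against the median of the other 11 libraries, and over 2286 features in each of 4 classes of length, its median log2 difference was 0.29 for features up to 1829 bases, 0.02 up to 3060 bases, −0.19 up to 4765 bases and −0.45 for longer ones. The next widest span from the shortest to the longest class was in 240 d-2, from −0.08 to 0.2. HBB, the beta globin of red blood cells, was at 1158 FPKM in 60 d-1 and at most 355 FPKM in any other library. Whether RNA quality or blood has a part in the make-up of 60 d-1 was not tested, and results that rest on it are given without it as well.

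For the tests, the counts of all features whose mean reached 10 counts at 1 or more ages were fitted together over the 12 libraries, which kept 13314 features and all 10 mitochondrial ones. No mitochondrial feature was called as different among the ages at a false discovery rate of 0.05 (edgeR quasi-likelihood test, Benjamini-Hochberg adjusted), while 19.8% of all features were. The smallest adjusted p were 0.128 for ND2 and 0.131 for COX2, and 2 of the 10 features had an unadjusted p under 0.05 (ND2 and COX2), beside 37.9% of all features. DESeq2 called 1 of the 10, COX2, with an adjusted p of 0.0404, and 31.4% of all features. Without 60 d-3, edgeR called ND1, ND2 and COX2, with adjusted p of 0.0495, 0.0376 and 0.0295, beside 2470 of 13338 features called in that fit. Without 60 d-1 it called none of the 10. The edgeR call of these 3 features thus turned on 1 library of 60 d.

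In the pairs of ages, edgeR called none of the 10 mitochondrial features either. Of all features it called 0% from 60 d to 120 d, 5.12% from 120 d to 240 d, 0% from 240 d to 400 d, 11.3% from 60 d to 240 d, 23.5% from 60 d to 400 d and 13.9% from 120 d to 400 d. At an unadjusted p under 0.05, 3 of the 10 were lower at 120 d than at 60 d and 1 was higher at 400 d than at 120 d, and none passed in the other 4 pairs. The shares of all features at that threshold, in the same order of pairs, were 10.4, 27.5, 8.83, 30.7, 38.4 and 32.2%. DESeq2 called 1 of the 10, ND2, from 120 d to 400 d, and none in the other 5 pairs. Its calls over all features were 0.526, 13.3, 0.436, 17.7, 28.4 and 20% in the same order. The pairs of ages share libraries, so their values are not independent of each other.

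From 60 d to 120 d, 9 of the 10 features had a lower fitted level at 120 d, with a median log2 change of −0.55 against −0.01 over all features, and none passed the test. Without 60 d-1 all 10 were lower, with a median of −0.34 against 0.01 over all features. COX2 was at 28130, 20299 and 10731 FPKM in the 60 d libraries and at 11257, 8033 and 10011 FPKM at 120 d, so that 60 d-3 lay among the 120 d values. Its log2 change was −1 ± 0.32 (SE), with an adjusted p of 0.384 by edgeR. ND2, another antiporter-like subunit of complex I, was at 4046, 3194 and 1619 FPKM at 60 d and at 1873, 1136 and 1396 FPKM at 120 d, again with overlap through 60 d-3 alone. Its log2 change was −1 ± 0.33 (SE), adjusted p = 0.392 by edgeR. ND1, which lies where the membrane arm of complex I meets the arm that takes up NADH, changed by −0.86 ± 0.34 (SE, adjusted p = 0.432 by edgeR), and at the other end ND6 changed by 0.01 ± 0.32 (SE). Without 60 d-1 the changes of COX2, ND2 and ND1 were −0.65, −0.71 and −0.51, and that of ND6 was −0.21. Under the ages of the supplementary table the same libraries are those of 240 d and 400 d.

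From 120 d to 400 d, all 10 features had a higher fitted level at 400 d, with a median log2 change of 0.6 against 0.01 over all features, and none passed the test. In CPM, 8 of the 10 were higher in each library of 400 d than in any of 120 d, beside 15.3% of all features that were apart in this direction. The exceptions were ND3 and ND6. The features are cut from shared precursors and enter the same mitochondrial share, so they do not count as separate observations. ND2 was at 2771, 2694 and 2645 FPKM at 400 d, above its values of 1873, 1136 and 1396 FPKM at 120 d, with a log2 change of 0.89 ± 0.33 (SE) and an adjusted p of 0.0897 by edgeR. A fit of only these 6 libraries gave ND2 an adjusted p of 0.0408, and the fit without 60 d-3 gave 0.0432, both by edgeR. COX1 was at 19701, 18291 and 19014 FPKM at 400 d and at 15259, 9804 and 12446 FPKM at 120 d, a log2 change of 0.61 ± 0.29 (SE, adjusted p = 0.169 by edgeR). ATP8/ATP6/COX3 was at 67757, 68622 and 64644 FPKM at 400 d and at 48551, 33019 and 45221 FPKM at 120 d, a log2 change of 0.57 ± 0.35 (SE, adjusted p = 0.273 by edgeR). The 400 d libraries were close to each other and the 120 d libraries were lower and more spread in all 3 features. CYTB, the core of complex III that passes electrons from quinol, changed by 0.67 ± 0.32, ND4L/ND4 by 0.67 ± 0.34, ND1 by 0.66 ± 0.34, ND6 by 0.58 ± 0.32, ND5 by 0.56 ± 0.27, COX2 by 0.52 ± 0.32 and ND3 by 0.25 ± 0.3 (log2 change ± SE). Under the ages of the supplementary table these libraries are those of 400 d and 60 d, so that the features read as lower at the later age. Scaled to the mitochondrial counts alone, which moves the median of all features from 120 d to 400 d to −0.64, 5 of the 10 were higher at 400 d.

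The other pairs gave smaller changes. From 120 d to 240 d, 9 of the 10 features were higher by fitted level, with a median of 0.35 and ND6 at the top with 0.65 ± 0.32 (SE, adjusted p = 0.209 by edgeR). From 240 d to 400 d, 9 were higher, with a median of 0.26, and ND1 and CYTB were higher in each library of 400 d than in any of 240 d, 2 of 10 beside 7.5% of all features. Between 60 d and 240 d, 3 were higher, with a median of −0.32, and from 60 d to 400 d, 5 were higher, with a median of −0.0015. Without 60 d-1, 4 were higher at 240 d than at 60 d, with a median of −0.064. In the same fit 9 were higher at 400 d than at 60 d, with a median of 0.2. ND6 and COX2 lay at opposite ends of the change from 60 d to 400 d, with 0.59 ± 0.32 and −0.48 ± 0.32 (log2 change ± SE), neither of which passed the test. Without 60 d-2, ND6 was called as higher at 400 d, with a log2 change of 0.99 ± 0.31 (SE) and an adjusted p of 0.0477 by edgeR, and without 60 d-3 COX2 was called as lower at 240 d than at 60 d, with −0.93 ± 0.27 (SE) and an adjusted p of 0.0499 by edgeR. The fits given here for ND6 and COX2 all include 60 d-1. In that library ND6 took 0.415% of the mitochondrial counts, against 0.983 to 1.59% elsewhere, and COX2 took 13.2%, against 7.74 to 10.6%.

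ND6, the subunit encoded on the opposite strand, made up 0.415, 1.05 and 1.1% of the mitochondrial counts at 60 d. It made up 1.21, 1.24 and 1.23% at 120 d, 1.59, 1.47 and 1.4% at 240 d, and 1.02, 1.59 and 0.983% at 400 d. The values were higher without overlap from 60 d over 120 d to 240 d, and those of 400 d overlapped with those of each other age. Over the 4 ages the exact permutation p was 0.0749 (adjusted p = 0.15 over this share and the mitochondrial share of all counts). It was 0.173 without 60 d-1, 0.0493 without 60 d-3 and 0.00656 without 400 d-2, by the same exact permutation test. From 60 d to 120 d, 120 d to 240 d and 60 d to 240 d the exact permutation p was 0.1, the smallest that 3 against 3 allow, and after adjustment over the 12 pair tests of both measures it was 0.3. ND5, which ends where ND6 ends on the other strand, had 6.63 times the counts of ND6 in 60 d-1 and 3.47 to 4.57 times in the other libraries. Under the ages of the supplementary table the order of the ND6 means is 1.19, 1.49, 0.854 and 1.23% from 60 d to 400 d.

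The nuclear-encoded subunits of the same complexes were looked at in the same fit. Their list held 100 symbols, including old and new ones of complex V. Of these, 44 were found and all 44 passed the filter on low counts. From 60 d to 400 d, 24 of the 44 fell and none rose (edgeR, false discovery rate of 0.05), beside 12.7% of all features that fell, with a median log2 change of −0.7 against −0.07 over all features. Of the 44, 37 are in the shortest of the length classes described above. In that class the 60 d libraries had median log2 differences of 0.01 to 0.29, and the 400 d libraries −0.07 to 0.0048. The part of length in the fall of the nuclear subunits was not tested. Between 60 d and 120 d edgeR called none of the 44 and DESeq2 called 7 as lower, beside 0.526% of all features called by DESeq2. At an unadjusted p under 0.05, 39 of the 44 were lower by edgeR, beside 10.4% of all features, and the median was −0.68 where that of the mitochondrial features was −0.55. From 60 d to 240 d, 17 fell and none rose, beside 5.83% of all features that fell. Without 60 d-1, 14 fell from 60 d to 400 d, beside 1527 of 13369 features, and 4 from 60 d to 240 d, beside 428. Without 400 d-2, 9 fell from 60 d to 400 d, beside 670 of 13360 features. Under the ages of the supplementary table, the same 24 subunits read as higher at 240 d than at 60 d, and the 17 as higher at 240 d than at 120 d. By those ages 1 of the 44 was called from 60 d to 400 d, beside 13.9% of all features. With only the 6 libraries of a pair in the fit, 15 were called from 60 d to 400 d, beside 1825 of 12976 features. From 60 d to 240 d such a fit called 1, beside 238 of 12926 features. Scaled to the mitochondrial counts alone, 10 and 0 were called in the same pairs, beside 726 and 10 of 13314 features. By complex, 13 of 21 found subunits of complex I (38 listed) fell from 60 d to 400 d. So did 3 of 6 of complex III (9 listed), and 4 of 7 of complex IV with cytochrome c (17 listed). In complex V, 4 of 6 found members fell. None of the 4 subunits of complex II, which has no mitochondrially encoded subunit, passed the test. NDUFA4 was counted here under complex I, and ATP5IF1, an inhibitor of ATP synthase, under complex V. The mitochondrial features of complex I had a median log2 change of 0.01 in the same pair, against −0.71 for the nuclear ones, and those of complex IV −0.13 against −0.87. For complex IV these were COX1 and COX2 only, with opposite changes of 0.21 and −0.48, since COX3 lies in a joined feature.

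NDUFB1, an accessory subunit of complex I, fell from 91.8 ± 19 CPM at 60 d to 37.1 ± 2.25 CPM at 400 d (mean ± SD, n = 3), with an adjusted p of 0.00145 by edgeR. NDUFV1, which binds NADH, fell from 419 ± 123 to 205 ± 35.5 CPM, with an adjusted p of 0.0101 by edgeR. The complex IV subunit COX4I1 fell from 789 ± 206 to 397 ± 28.3 CPM (adjusted p = 0.0112 by edgeR), and ATP5ME of complex V from 133 ± 29.1 to 54.6 ± 8.44 CPM (adjusted p = 0.00309 by edgeR). In complex III, UQCR11 fell from 167 ± 33.4 to 90 ± 1.02 CPM (adjusted p = 0.00543 by edgeR). Some subunits with many counts did not pass the test. ATP5F1A, the alpha subunit of the catalytic head of complex V, was at 1336 ± 276 CPM at 60 d and 908 ± 103 CPM at 400 d (adjusted p = 0.0661 by edgeR). NDUFA4 was at 502 ± 126 and 333 ± 32.8 CPM (adjusted p = 0.0879 by edgeR), and SDHA, the catalytic subunit of complex II, was at 427 ± 130 and 331 ± 54.1 CPM (adjusted p = 0.239 by edgeR). From 120 d on, the nuclear subunits had medians near 0, with −0.04 from 120 d to 400 d, where the mitochondrial features had 0.6. Of the 44, edgeR called 1, NDUFS1 of complex I, as higher at 240 d and at 400 d than at 120 d. Its log2 changes were 0.81 (adjusted p = 0.0415 by edgeR) and 0.79 (adjusted p = 0.025 by edgeR). Of all features, 5.12 and 13.9% were called in these pairs.

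**Figure D4:**
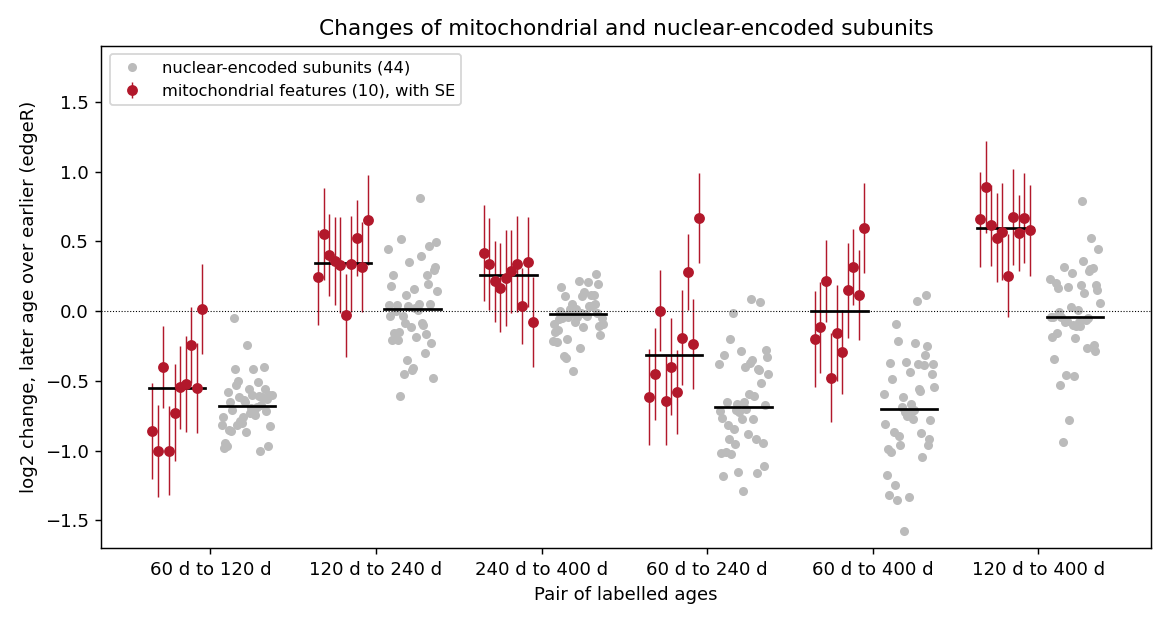
Fitted log2 change (later age over earlier) of the 10 mitochondrial features, red with SE bars, and of 44 nuclear-encoded subunits, grey, for the 6 pairs of labelled ages, with a black line at each median. From 60 d to 400 d the nuclear median is −0.7 and the mitochondrial one near 0, and from 120 d to 400 d the nuclear median is −0.04 and the mitochondrial one 0.6.

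To set both genomes against each other within a library, the summed counts of the 10 mitochondrial features were divided by those of the 44 nuclear subunits, a measure chosen after these values were seen. The ratio was 8.41, 8.34 and 6.38 at 60 d, 8.47, 7.61 and 9.61 at 120 d, 10.1, 9.67 and 9.88 at 240 d, and 12, 13.1 and 10.9 at 400 d. Its means were 7.71 ± 1.15, 8.56 ± 1, 9.88 ± 0.21 and 12 ± 1.11 (SD, n = 3), and each library of 400 d was above all others, as was each of 240 d above those of 60 d and 120 d. The ratio differed among the ages (exact permutation test over 369600 assignments of the libraries to the ages, p = 0.00123, not adjusted for the other measures). Leaving out any 1 library gave p between 0.0011 and 0.00532 by the same test. It needs no scaling by library size, so ACTA1 does not enter it. Of the 44 nuclear subunits, 37 are in the shortest of these classes, and short nuclear features had median log2 differences of 0.01 to 0.29 in the 60 d libraries and of −0.07 to 0.0048 in those of 400 d against the other libraries, so the part of length in the ratio was not tested. Under the ages of the supplementary table the means run 12, 9.88, 7.71 and 8.56 from 60 d to 400 d, so the direction of the change with age turns while its test stays.

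**Figure D5:**
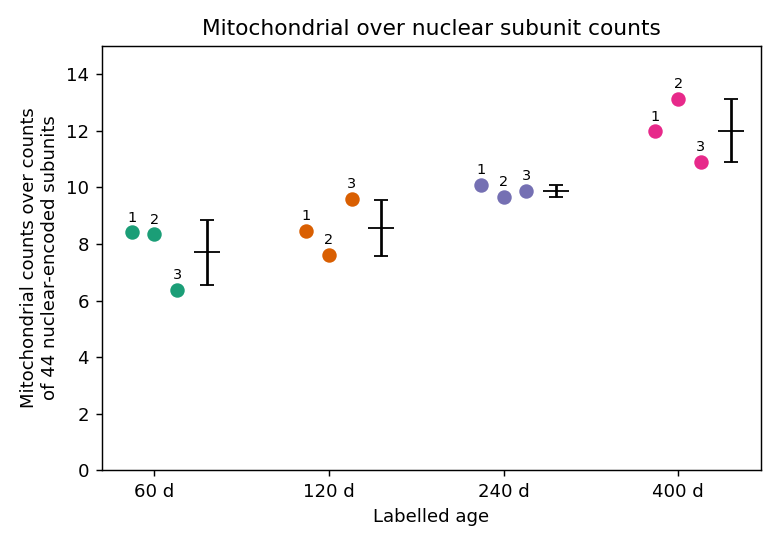
Summed counts of the 10 mitochondrial features over those of 44 nuclear-encoded subunits of complexes I to V and cytochrome c, a ratio without unit, with 1 numbered point per library and the mean with SD as a bar at each labelled age. The mean goes from 7.71 at 60 d to 12 at 400 d.

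Among the nuclear genes that copy and transcribe the mitochondrial chromosome, 11 of 17 symbols were found and 9 were tested. TFAM and POLRMT were not found by symbol and were not analysed here. From 120 d to 400 d, TWNK, the helicase that unwinds mitochondrial DNA, rose from 12.4 ± 0.447 to 23.5 ± 2.66 CPM (adjusted p = 0.00888 by edgeR), and TFB2M, which helps the mitochondrial polymerase to open its promoters, rose from 4.74 ± 0.365 to 7.96 ± 0.651 CPM (adjusted p = 0.0496 by edgeR). Both have few counts. All 9 had a higher fitted level at 400 d than at 120 d, with a median log2 change of 0.53, and 2 passed the test, beside 13.9% of all features. POLG, the mitochondrial DNA polymerase and the member with the most counts, was at 105 ± 1.2 and 111 ± 15.5 CPM (adjusted p = 0.44 by edgeR), and MTERF3, next in counts, at 23.3 ± 5.02 and 22.2 ± 1.7 CPM.

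Of the genes that process and stabilise mitochondrial RNA, 20 of 27 were found and tested, and 1 rose and none fell from 120 d to 400 d, beside 13.9% of all features called. This was GRSF1, a protein of the granules in which mitochondrial RNA is processed, which rose from 76.1 ± 8.6 to 130 ± 8.95 CPM (adjusted p = 0.012 by edgeR) and was at 64 ± 9.87 CPM at 60 d. LRPPRC, which binds and stabilises mitochondrial messenger RNAs, was at 86.1 ± 27.4, 74.6 ± 16.4, 135 ± 32.8 and 107 ± 27.8 CPM at the 4 ages and did not pass the test over the ages (adjusted p = 0.0775 by edgeR). FASTK was at 151 ± 27.3, 119 ± 24.9, 99.2 ± 18.7 and 105 ± 8.3 CPM (adjusted p = 0.0647 over the ages by edgeR). It fell from 60 d to 240 d (adjusted p = 0.0419 by edgeR). MRM1, which methylates mitochondrial ribosomal RNA, fell from 10.4 ± 1.64 CPM at 60 d to 5.78 ± 1.91 CPM at 240 d (adjusted p = 0.045 by edgeR). In that pair 3 of the 20 passed the test, 1 higher and 2 lower at 240 d, beside 11.3% of all features. Over the ages 3 of the 20 passed the test, beside the 19.8% of all features.

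Among 10 regulators of mitochondrial biogenesis found, 1 passed the test over the ages, beside 19.8% of all features. This was PPARGC1A, a coactivator of nuclear genes for oxidative metabolism (adjusted p = 0.0273 by edgeR). It was at 1.36, 3.99 and 20.5 FPKM at 60 d, at 2.16, 1.67 and 0.806 FPKM at 120 d, at 6.34, 15.5 and 62.6 FPKM at 240 d and at 2.67, 3.08 and 4.63 FPKM at 400 d. Its highest libraries at 60 d and 240 d were 60 d-3 and 240 d-3, of which the first had the lowest mitochondrial share of its age and the second the highest. ESRRG and ESRRA, nuclear receptors that act with this coactivator, had adjusted p of 0.0776 and 0.427 over the ages by edgeR.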

How the data were processed

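RNA of LD muscle was sequenced by the study on an Illumina HiSeq with 125 cycles from both ends, after NEBNext Ultra library preparation. Per the study's methods reads were aligned with TopHat2 to Sscrofa10.2, and the submitters' processing notes name Bowtie 0.12.2 and Cufflinks. The authors deposited, for each of 22658 features, raw counts and FPKM of 3 libraries per age, both used here, and a normalized value that was not used. The 10 members and the nuclear and marker lists were chosen with earlier results of these data known. Counts were tested with edgeR 4.0.16 in R 4.3.3 (quasi-likelihood test, TMM scaling, features whose mean reached 10 counts at 1 or more ages, Benjamini-Hochberg over 13314 features), in 1 fit of all 12 libraries, and with DESeq2 1.42.0 as an alternative. Scripts were tested on simulated data. Shares and ratios were compared by exact two-sided permutation tests over libraries (NumPy 2.4.6), in which 3 against 3 cannot go below 0.1. SciPy 1.17.1 gave the Wilson intervals and the adjustment of these p-values. Total counts of 9713813 to 13325327 put a floor of 3 counts at 0.225 to 0.309 CPM, and intervals and floors cover counting error only. All mitochondrial features were named, and of each nuclear list the 2 members with the lowest p over the ages and the 2 with the most counts. Libraries have no number that pairs them across ages. Alternative scalings, filters, tools, left-out libraries and the ages of the supplementary table were also run.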

Additional observations from a re-analysis of the deposited data

How the results depend on the processing

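Of 1111 alternative values, 1023 were classed as the same, 38 moved, 39 changed direction and 11 newly passed the threshold. Counts of calls were classed as the same when close to that of the fit of all 12 libraries. Values of p were classed by their side of the threshold, differences in shares and ratio by direction, and log2 changes by both. The test of the mitochondrial share over the ages was counted under 2 names, since all its features are protein-coding. The count of mitochondrial features called was 2 over the ages, 3 from 60 d to 120 d and 1 from 120 d to 400 d at an unadjusted p under 0.05. DESeq2 called 1 over the ages and 1 from 120 d to 400 d, where a fit of the 6 libraries of that pair also called 1. Leaving out 1 library gave 0 to 3 called over the ages (3 without 60 d-3) and 0 to 1 from 60 d to 240 d and 120 d to 400 d (1 without 60 d-3) and from 60 d to 400 d (1 without 60 d-2). The exact permutation p over the ages then ran from 0.0321 to 0.639 for the mitochondrial share and from 0.00656 to 0.198 for the ND6 share. It ran from 0.0011 to 0.00532 for the ratio of mitochondrial to nuclear subunit counts. The share difference from 60 d to 400 d ran from −1.87 to 1.14 percentage points, and the ND6 share difference from 120 d to 400 d from −0.227 to 0.0749. The log2 change from 60 d to 120 d ran from −0.38 to 0.021 for ND5 and from −0.21 to 0.41 for ND6. By counts per kilobase of locus, 2 of the 10 features kept their place in the order by FPKM.

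With the ages of the supplementary table the share changed by −2.71 from 240 d to 400 d, −2.76 from 60 d to 400 d and −1.53 percentage points from 120 d to 400 d, and the ND6 share by −0.635 from 120 d to 240 d, 0.373 from 240 d to 400 d and −0.341 from 60 d to 240 d. The ratio changed by −2.12 from 60 d to 120 d, −2.17 from 120 d to 240 d, −4.29 from 60 d to 240 d, −3.43 from 60 d to 400 d and −1.31 from 120 d to 400 d. The log2 changes from 120 d to 400 d were −0.24 for ND1, −0.55 for ND2, −0.40 for COX1, −0.36 for COX2, −0.33 for ATP8/ATP6/COX3, −0.34 for ND4L/ND4, −0.52 for ND5, −0.32 for CYTB and −0.65 for ND6. Scaling to mitochondrial counts alone gave log2 changes from 60 d to 120 d of 0.14 for COX1, 0.066 for ND3, 0.11 for ND4L/ND4, 0.30 for ND5 and 0.089 for CYTB, and from 120 d to 400 d of −0.088 for COX2, −0.037 for ATP8/ATP6/COX3, −0.35 for ND3, −0.055 for ND5 and −0.037 for ND6, by construction relative to the other mitochondrial features.

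The nuclear subunits called over the ages, from 60 d to 240 d and from 60 d to 400 d numbered 21, 17 and 24. They were 3, 2 and 3 at a false discovery rate of 0.01 with a log2 change of 1 for pairs, 13, 11 and 19 with the total count as the scale, 9, 0 and 10 scaled to mitochondrial counts alone, and 7 to 26, 2 to 21 and 9 to 27 without 1 library. Only the 6 libraries of the pair gave 1 from 60 d to 240 d and 15 from 60 d to 400 d, beside 238 of 12926 and 1825 of 12976 features. Over all 13314 features, 2639, 1509 and 3124 were called over the ages and in these pairs. The stricter rule called 523, 112 and 833 of them. The total count as the scale gave 2262, 1124 and 2716, and the mitochondrial counts alone gave 1478, 10 and 726. Without 1 library, the ranges over all features were 1375 to 2894, 255 to 1552 and 1335 to 3227. The ratio, the table without ACTA1 and the alternatives for nuclear subunits and for single log2 changes were chosen after seeing the data. Where a cause is not given, the cause was not tested. The planned results on ribosomal RNA were not run, since no such feature is among the 10. No paired analysis was possible because the columns of each age carry no number in the labels that ties a library to one of another age.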
